A study of Arabidopsis thaliana with 9 samples.

Results

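The 8 trehalose-phosphate synthase genes TPS1 and TPS5 to TPS11 were followed across 9 RNA-Seq libraries of Arabidopsis thaliana seedlings. The members were taken by their gene identifiers as a family, a choice made with earlier results of these data known, and they are 8 of the 38194 genes listed in the files. The seedlings were 4 days old, were grown at 23 °C under long days on Murashige and Skoog medium, and all shared the Columbia-0 background. The study's methods give this medium at reduced strength, and fluorescent light for this RNA-Seq set. By its label, OE APOLO carries APOLO, an Arabidopsis long noncoding RNA (lncRNA) and regulator of auxin-responsive loci, behind the constitutive viral 35S promoter. OE UPAT carries the human lncRNA UPAT behind the same promoter, and WT carries no transgene. There were 3 libraries of each group (replicates A, B and C), and each transgenic group was 1 line (OE APOLO-1 and OE UPAT-1), so that a difference from WT cannot be told apart from an effect of that line.

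Trehalose-6-phosphate (Tre6P) is made from UDP-glucose and glucose-6-phosphate by trehalose-phosphate synthase (TPS), dephosphorylated by trehalose-phosphate phosphatase (TPP) and, as trehalose, split by trehalase. In plants it is a sugar signal that follows sucrose and inhibits SnRK1, the kinase active in carbon shortage. TPS1 is a class I enzyme known to make Tre6P in Arabidopsis. The class II proteins carry both a TPS-like and a TPP-like part, have no clear enzyme activity and can bind SnRK1. In Arabidopsis seedlings the transcripts of TPS8 to TPS11 are known to build up on sugar starvation, and that of TPS5 on sugar supply.

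The total count per library lay between 11918225 and 14112670 in OE APOLO, between 7901946 and 9206471 in OE UPAT and between 13023768 and 14084551 in WT, so that OE UPAT values rest on fewer reads. The APOLO transcript had from 1 to 3 counts in the OE APOLO-labelled libraries, against 2 counts in every WT library. The label of these libraries therefore finds no support in the counts, and every direction given for them rests on the label. UPAT, a human transcript, was not measured. Markers of green tissue and of root were present in every library. The summed level of the 5 root markers lay from 2252 to 2868 CPM (the count over the scaled library size) in the OE APOLO-labelled libraries and from 2191 to 2409 CPM in OE UPAT, against 1732 to 2003 CPM in WT, but this sum was mostly PYK10, a root beta-glucosidase, with means of 2362 CPM in the OE APOLO-labelled libraries, 2202 CPM in OE UPAT and 1768 CPM in WT. No root marker passed the test described below, and in OE UPAT the log2 fold changes of CASP1 (-0.06), COBL9 (-0.39) and EXPA7 (-0.35) were negative, against 0.32 for PYK10 and 0.04 for SCR. Of the 4 green tissue markers, RBCS1A (log2 fold change 0.57, edgeR FDR 0.00112) and RCA (0.43, FDR 0.00704) were higher in OE UPAT than in WT, while the summed level overlapped, with 44186 to 51525 CPM in OE UPAT and 39446 to 47939 CPM in WT. The mean of CAB1, the most abundant of the 4, was lower in OE UPAT (25747 CPM) than in WT (28032 CPM). LHCA3 had means of 4977 CPM in OE UPAT and 4573 CPM in WT. For both genes the libraries of OE UPAT and WT overlapped. The 4 seed markers summed to 0.518 to 20.5 CPM in the OE APOLO-labelled libraries, 1.05 to 2.52 CPM in OE UPAT and 1.32 to 2.52 CPM in WT. The part of these tissues in the results was not tested. In whole seedlings, fewer cells of a type and less RNA per cell cannot be told apart.

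Of the 8 members, 6 lie on chromosome 1. In the TAIR10.1 annotation TPS1 (AT1G78580) spans chromosome 1 from 29552340 to 29560912 on the minus strand, TPS6 (AT1G68020) from 25496928 to 25500584 on the plus strand and TPS7 (AT1G06410) from 1954674 to 1958866 on the plus strand. TPS8 (AT1G70290) spans 26470795 to 26474833 on the minus strand, TPS9 (AT1G23870) 8432179 to 8435656 on the plus strand and TPS10 (AT1G60140) 22176934 to 22181740 on the minus strand of the same chromosome. TPS5 (AT4G17770) lies on chromosome 4 from 9876172 to 9880386, and TPS11 (AT2G18700) on chromosome 2 from 8108898 to 8112010, both on the plus strand. Between their coding sequences TPS8 and TPS9 were the closest pair, with 80.8% identical bases. TPS10 shared 71.5% with each of them and TPS5 shared 69.2% with TPS6. TPS1 shared only 46.0% to 48.0% with the class II members. No exact stretch of 75 bases, the length of an untrimmed read, within a single exon of any member occurred elsewhere in the nuclear genome. Shorter stretches and matches with mismatches were not searched, so reads shared with other loci are not excluded. Parts of TPS1, TPS5 and TPS6 overlap genes on the other strand. Of these partners only AT1G78570, next to TPS1, held many counts (400 to 682 per library), and since the strand setting of the counting is not given in the sources used here, the TPS1 values may include reads of it.

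The 250 bases before the annotated start are shown for TPS8 and TPS9, the closest pair, and for TPS11, the member with the largest changes. Those of TPS5, the only member called higher in OE UPAT than in WT by the test described below, are shown as well. All of these windows were read from the RefSeq genome (TAIR10.1), run 5′ to 3′ on the strand of the gene, and carry in capitals the letters searched for.
TPS8, chr1:26474834-26475083, minus strand: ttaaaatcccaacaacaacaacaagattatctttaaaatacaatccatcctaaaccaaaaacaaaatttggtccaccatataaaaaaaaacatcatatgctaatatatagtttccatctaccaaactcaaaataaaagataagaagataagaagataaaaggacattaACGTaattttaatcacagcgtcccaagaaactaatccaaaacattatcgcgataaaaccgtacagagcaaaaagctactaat
TPS9, chr1:8431929-8432178, plus strand: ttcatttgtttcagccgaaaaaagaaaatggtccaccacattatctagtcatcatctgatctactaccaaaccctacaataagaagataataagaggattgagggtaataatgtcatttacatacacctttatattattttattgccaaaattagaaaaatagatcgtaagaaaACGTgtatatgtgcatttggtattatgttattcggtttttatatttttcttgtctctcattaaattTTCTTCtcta
TPS11, chr2:8108648-8108897, plus strand: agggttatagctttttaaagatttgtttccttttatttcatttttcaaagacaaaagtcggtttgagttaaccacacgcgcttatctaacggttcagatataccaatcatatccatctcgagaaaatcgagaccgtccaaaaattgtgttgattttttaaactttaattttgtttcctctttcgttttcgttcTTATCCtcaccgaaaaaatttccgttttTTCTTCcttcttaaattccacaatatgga
TPS5, chr4:9875922-9876171, plus strand: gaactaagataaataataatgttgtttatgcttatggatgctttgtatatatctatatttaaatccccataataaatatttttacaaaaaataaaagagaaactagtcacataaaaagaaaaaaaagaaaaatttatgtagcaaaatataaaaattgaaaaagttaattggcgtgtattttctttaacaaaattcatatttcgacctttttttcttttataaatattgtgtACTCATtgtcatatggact
The windows of 7 members, all but TPS6, were searched. The letters searched for on both strands were the G-box CACGTG, its ACGT core (which every G-box contains), ACTCAT, the evening element AAAATATCT, TTATCC and GAAGAA, the repeat by which APOLO is known to recognise its targets. The ACGT core stood before TPS8, TPS9 and TPS10, that is before 3 of these 7 members, and in 44.4% of the 19884 promoters of tested genes. The full G-box stood before none of the 7 and in 7.35% of all promoters. ACTCAT, known as an element of bZIP factors, stood before TPS5 and in 11.9% of all promoters. GAAGAA stood before TPS1, TPS7, TPS9 and TPS11, 4 of the 7 members, and in 30.2% of all promoters. TTATCC stood before TPS11 (13.3% of all promoters), and the evening element before none of the 7 (2.46% of all promoters). The longest run of bases shared by the windows of 2 members on the strand of the gene was ATAAGAAGATAA, of 12 bases, in TPS8 and TPS9. It was found after the windows had been seen. On either strand, 7 of the 19884 promoters hold it, those of TPS8 and TPS9 among them. A match is only a description of the letters.

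To ask which members differ in transcript level per gene length, CPM per kilobase (kb) of exon were compared within each group. In the OE APOLO-labelled libraries, TPS9 (73.4 ± 3.89 CPM per kb), TPS11 (70.7 ± 2.31) and TPS8 (67.0 ± 1.64; SD, n = 3) led, and the libraries of each overlapped those of the next. In OE UPAT, TPS9 led with 55.2 CPM per kb, before TPS8 with 47.7 and TPS7 with 45.7, which overlapped, and TPS11 came next with 39.1. In WT, TPS11 led with 99.8 CPM per kb, before TPS9 with 84.2 and TPS8 with 75.9, and none of these 3 overlapped the next. TPS11 thus led without overlap in WT only. In all 3 groups TPS6, TPS1 and TPS5 were the lowest, in this order and without overlap. TPS1, the catalytic enzyme, had 4.97 CPM per kb in the OE APOLO-labelled libraries, 6.06 in OE UPAT and 5.17 in WT. The order of the upper 5 depended on the length used. With coding length in place of exonic length, TPS8 led in the OE APOLO-labelled libraries and TPS7 in OE UPAT, while TPS11 still led in WT.

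The 8 members summed to 328 ± 8.17 CPM per kb in the OE APOLO-labelled libraries, 244 ± 6.44 in OE UPAT and 369 ± 11.5 in WT (SD, n = 3 each). No library of either line overlapped WT, and no OE UPAT library overlapped OE APOLO. Sums and shares use exonic length and were not computed with coding length, which would give other shares. TPS11 made up 21.5% of the sum in the OE APOLO-labelled libraries, 16.0% in OE UPAT and 27.0% in WT. TPS7 made up 15.5% in the OE APOLO-labelled libraries, 18.7% in OE UPAT and 10.7% in WT. The share of TPS9 was 22.3% in the OE APOLO-labelled libraries, 22.6% in OE UPAT and 22.8% in WT, with overlap between all groups. TPS1 gave 1.52% in the OE APOLO-labelled libraries, 2.48% in OE UPAT and 1.40% in WT, and TPS5 gave less than TPS1 in every group.

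**Figure D1:**
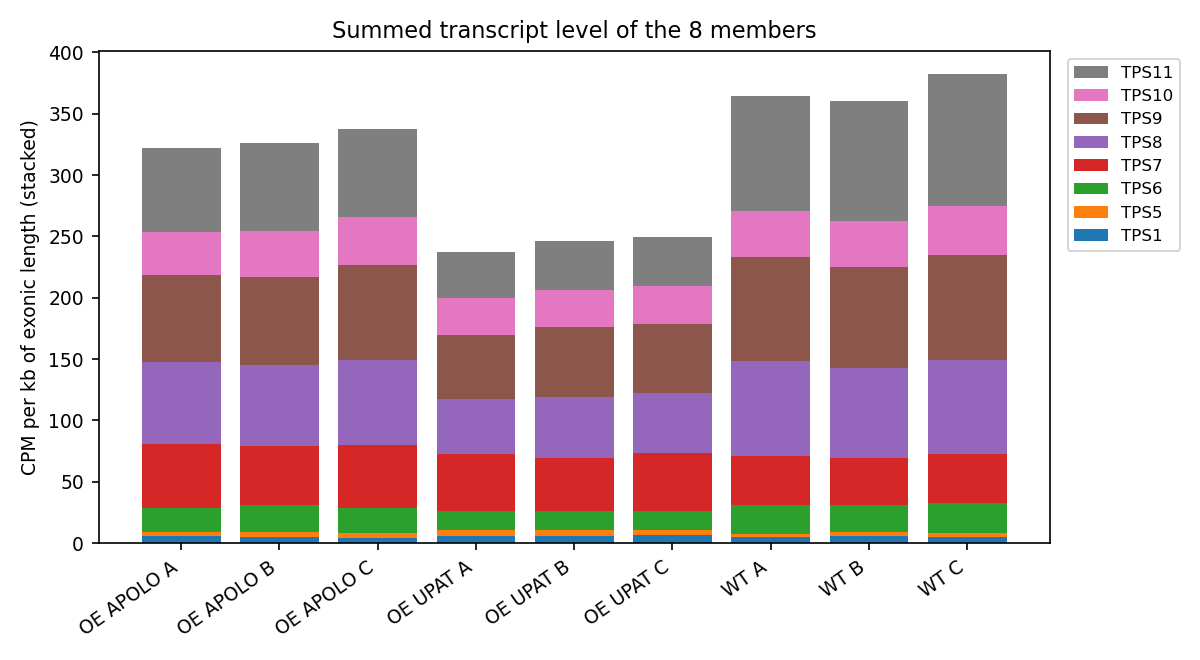
Summed level of the 8 members in each library, as stacked CPM per kb of exonic length, with 3 libraries each of OE APOLO, OE UPAT and WT from left to right. The OE UPAT bars reach 237 to 249.7 CPM per kb, against 322 to 338 in the OE APOLO-labelled libraries and 361 to 382 in WT, and the TPS11 segment at the top shrinks most between WT and OE UPAT.

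Calls were made with edgeR's quasi-likelihood test at a false discovery rate (FDR) under 0.01. In the OE APOLO-labelled libraries, 2 of 8 members passed against WT, where 6.54% of all 20021 genes tested did. TPS7 was higher (4.27% of all genes were) and TPS11 lower (2.27% of all genes were). In OE UPAT 6 of 8 members passed, against 19.8% of all genes. TPS5 was higher, where 10.1% of all genes were, and TPS6, TPS8, TPS9, TPS10 and TPS11 were lower, where 9.72% of all genes were. The median log2 fold change of the members was -0.10 in the OE APOLO-labelled libraries and -0.45 in OE UPAT, with medians over all genes of -0.00 and -0.01. The groups did not overlap for 5 members in the OE APOLO-labelled libraries (31.0% of all genes) and for 7 in OE UPAT (46.7% of all genes). Both comparisons share the WT libraries.

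**Figure D2:**
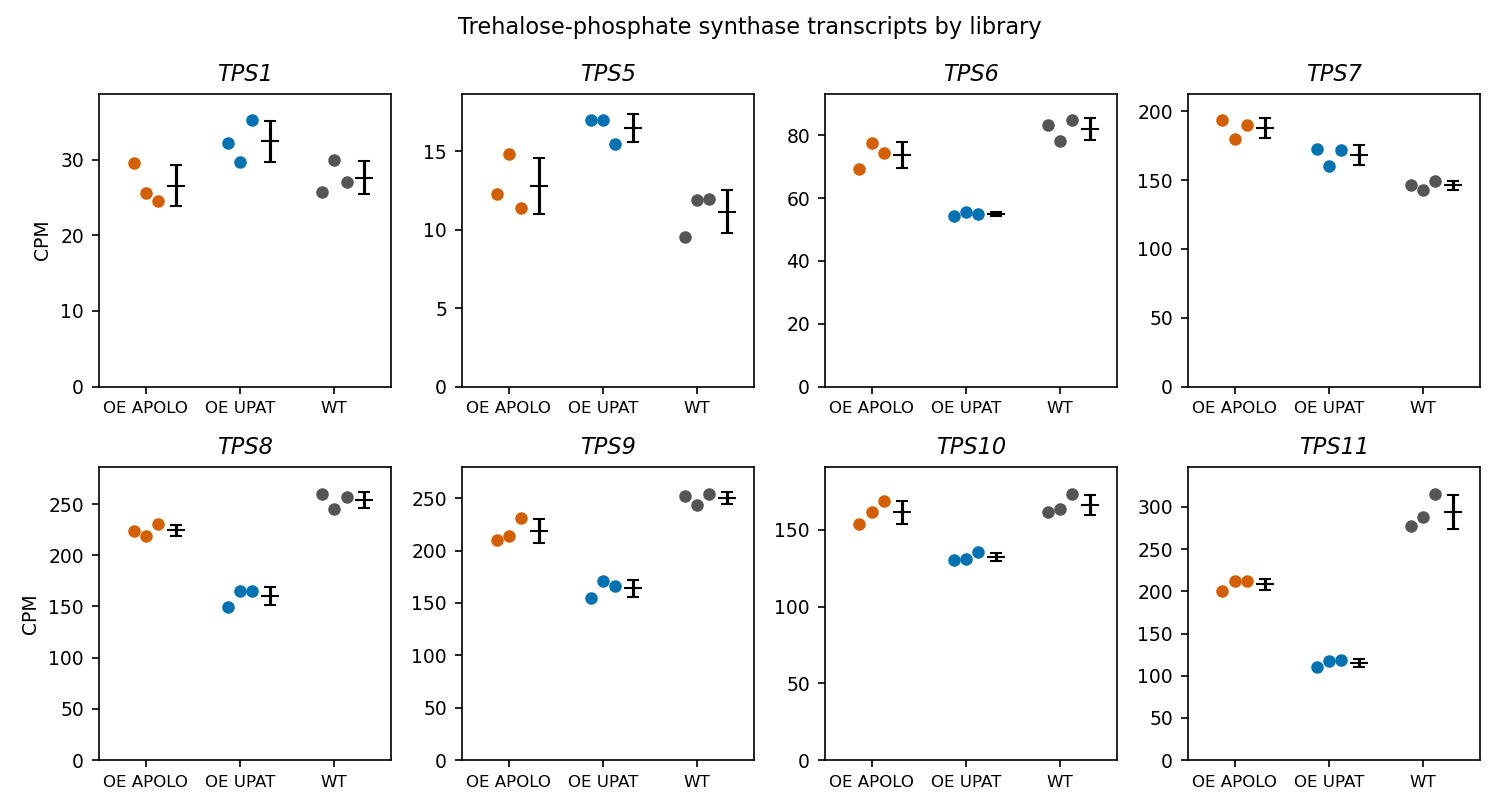
CPM of each member in each library (points) of OE APOLO, OE UPAT and WT, with the group mean and SD beside them (n = 3). Each panel has its own linear axis from 0. For TPS11 the OE UPAT libraries lie between 110.0 and 118 CPM, those labelled OE APOLO between 200.4 and 212 and those of WT between 277 and 316, with no overlap.

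TPS1, which makes Tre6P and is needed for embryo maturation and flowering, had 29.6, 25.6 and 24.5 CPM in the OE APOLO-labelled libraries A, B and C, 32.2, 29.7 and 35.2 CPM in OE UPAT and 25.8, 30.0 and 27.1 CPM in WT. Both lines overlapped WT. The log2 fold change was -0.05 ± 0.09 in the OE APOLO-labelled libraries (SE; edgeR FDR 0.774) and 0.23 ± 0.10 in OE UPAT (FDR 0.0844), so that neither passed the test. The other class I genes TPS2, TPS3 and TPS4 had 0 counts in all 9 libraries, which by counting error alone allows up to 0.393 CPM in the smallest library (3 counts in OE UPAT C), and were not tested.

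TPS5, a class II member whose product is phosphorylated and bound by 14-3-3 proteins, was the only member called higher in OE UPAT than in WT. It had 12.3, 14.8 and 11.4 CPM in the OE APOLO-labelled libraries, 17.0, 17.0 and 15.4 CPM in OE UPAT and 9.57, 11.9 and 12.0 CPM in WT. All OE UPAT libraries lay above all others, while the OE APOLO-labelled libraries overlapped WT. The log2 fold change against WT was 0.57 ± 0.13 in OE UPAT (edgeR FDR 0.00316) and 0.20 ± 0.12 in the OE APOLO-labelled libraries (FDR 0.326). TPS5 is the member with fewest counts (118 to 200 per library), and its call in OE UPAT was lost without WT A (log2 fold change 0.47), without OE UPAT A (0.55) or without OE UPAT B (0.56), with an FDR of up to 0.0202.

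TPS6, known for mutants with altered epidermal cell shape, had 69.2, 77.5 and 74.4 CPM in the OE APOLO-labelled libraries, 54.3, 55.4 and 55.0 CPM in OE UPAT and 83.2, 78.0 and 84.8 CPM in WT. The 3 groups did not overlap. TPS6 fell in OE UPAT, with a log2 fold change of -0.58 ± 0.07 (edgeR FDR 1.68e-05). In the OE APOLO-labelled libraries the log2 fold change of -0.15 ± 0.07 did not pass (FDR 0.154). TPS6 thus fell where TPS5, its closest relative by coding sequence, rose.

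TPS7, a further class II member, was the one member called higher in the OE APOLO-labelled libraries than in WT. It had 193, 179 and 189.7 CPM there, 172, 160.0 and 172 CPM in OE UPAT and 146, 143 and 149 CPM in WT. All libraries of both lines lay above all WT libraries. The log2 fold change was 0.36 ± 0.06 in the OE APOLO-labelled libraries (edgeR FDR 0.00170) and 0.20 ± 0.07 in OE UPAT (FDR 0.0272, which misses the threshold of 0.01). Without WT A, the call in the OE APOLO-labelled libraries was lost (log2 fold change 0.36, FDR 0.0125).

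TPS8 and TPS9, the pair with the most similar coding sequences, both fell in OE UPAT. TPS8 had 224, 219 and 230.2 CPM in the OE APOLO-labelled libraries, 149.7, 165 and 165 CPM in OE UPAT and 260.1, 246 and 257 CPM in WT. TPS9 had 209.7, 214 and 231 CPM in the OE APOLO-labelled libraries, 155, 171 and 166 CPM in OE UPAT and 252, 244 and 254 CPM in WT. For both genes the 3 groups were apart, with OE UPAT lowest and WT highest. In OE UPAT, TPS8 fell by a log2 fold change of -0.67 ± 0.07 (edgeR FDR 3.43e-06) and TPS9 by one of -0.61 ± 0.07 (FDR 1.03e-05). In the OE APOLO-labelled libraries the log2 fold changes of -0.18 ± 0.07 for TPS8 (FDR 0.0907) and -0.20 ± 0.07 for TPS9 (FDR 0.0708) did not pass.

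TPS10, the next relative of this pair, changed less. It had 154, 162 and 169 CPM in the OE APOLO-labelled libraries, 130.5, 131 and 135 CPM in OE UPAT and 162, 164 and 174 CPM in WT. OE UPAT lay below all other libraries, and the OE APOLO-labelled libraries overlapped WT. The log2 fold change was -0.33 ± 0.07 in OE UPAT (edgeR FDR 0.00134) and -0.04 ± 0.06 in the OE APOLO-labelled libraries (FDR 0.735). The call in OE UPAT was lost without WT C (log2 fold change -0.29, FDR 0.0120).

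TPS11, which in Arabidopsis takes part in the defence against aphids, showed the largest change of the 8 members in each comparison. It had 200.4, 212 and 212 CPM in the OE APOLO-labelled libraries, 110.0, 117 and 118 CPM in OE UPAT and 277, 289 and 316 CPM in WT. The groups were widely apart. It fell in both lines, by a log2 fold change of -1.35 ± 0.07 in OE UPAT (a fold of 0.392, edgeR FDR 8.29e-09) and of -0.50 ± 0.07 in the OE APOLO-labelled libraries (a fold of 0.709, FDR 0.000252). Both calls held without any one library, with an FDR of up to 5.49e-07 in OE UPAT and up to 0.00240 in the OE APOLO-labelled libraries. TPS11 was also the only member to pass a log2 fold change of 1 in any comparison.

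**Figure D3:**
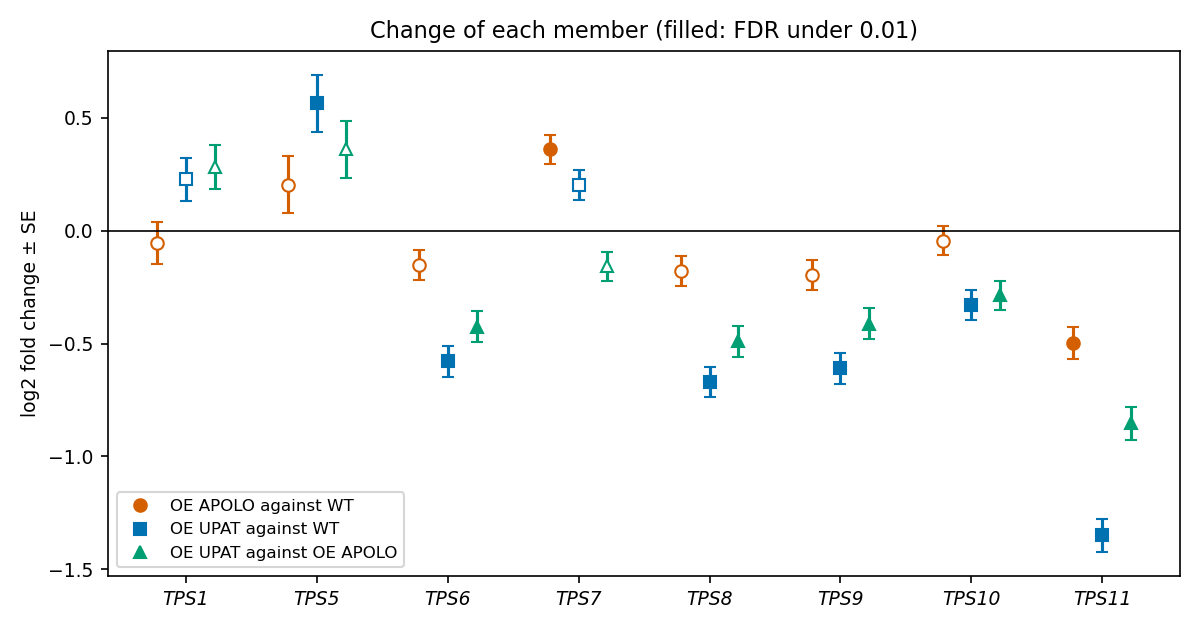
Log2 fold change of each member with its SE in edgeR for OE APOLO against WT (circles), OE UPAT against WT (squares) and OE UPAT against OE APOLO (triangles), with filled symbols at an FDR under 0.01. TPS11 reaches -1.35 in OE UPAT, TPS5 stands at 0.57, and TPS7 lies above 0 in both lines.

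The next comparison set OE UPAT against the OE APOLO-labelled libraries. Here 5 of 8 members passed the same test and all 5 were lower, where 17.8% of all genes passed, 8.49% higher and 9.36% lower. All 8 members had groups that did not overlap, as had 41.7% of all genes. The log2 fold change was -0.85 ± 0.07 for TPS11 (edgeR FDR 9.30e-07), -0.49 ± 0.07 for TPS8 (FDR 8.87e-05), -0.42 ± 0.07 for TPS6 (FDR 0.000368) and -0.41 ± 0.07 for TPS9 (FDR 0.000439). For TPS10 it was -0.29 ± 0.07 (FDR 0.00434), a call lost without OE APOLO B or C (-0.29 and -0.26) or without OE UPAT A, B or C (-0.27, -0.27 and -0.30), with an FDR of up to 0.0207. TPS1 (0.28, FDR 0.0386), TPS5 (0.36, FDR 0.0420) and TPS7 (-0.16, FDR 0.0840) did not pass. TPS6, TPS8, TPS9, TPS10 and TPS11 were thus lower in OE UPAT than in the OE APOLO-labelled libraries as well as in WT, and both comparisons share the OE UPAT libraries. Of these 5, only TPS11 had also passed in the OE APOLO-labelled libraries against WT.

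The likeness of the members across the 9 libraries is given as a description. The Pearson correlation of log2(CPM + 0.5) between each 2 of TPS6, TPS8, TPS9, TPS10 and TPS11 lay from 0.948 to 0.993, highest for TPS8 with TPS9. With TPS5 these 5 members had values from -0.90 to -0.81, and TPS1 had values from -0.77 to -0.66 with them. TPS7 was related to none of the other members by more than 0.42 in absolute value. These values span 9 libraries of 3 groups and hold the differences between the groups given above, so that high values among members that fell in OE UPAT restate those differences. By the same measure, the 5 other genes most like TPS11 were AT1G21400 (r = 0.994), PDS1 (AT1G06570, 0.993), IVD (AT3G45300, 0.993), AT5G57655 (0.993) and ARI5 (AT1G05890, 0.992), each over 9 libraries. IVD, isovaleryl-CoA dehydrogenase of leucine breakdown, averaged 166 CPM in the OE APOLO-labelled libraries, 88.4 CPM in OE UPAT and 242 CPM in WT.

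Next, genes that act before and after Tre6P were followed in lists, each read beside the share of all genes given above. Of 11 TPP and trehalase genes, 8 were tested, and TPPC (0 counts), TPPD (2 to 11) and TPPJ (3 to 8) were too low. Of the 8, 1 was higher and none lower in the OE APOLO-labelled libraries, and 2 were higher and 1 lower in OE UPAT. TRE1, the trehalase, had 23.0, 23.0 and 25.2 CPM in the OE APOLO-labelled libraries, 14.0, 10.9 and 10.3 CPM in OE UPAT and 27.9, 29.5 and 30.0 CPM in WT. It fell in OE UPAT, with a log2 fold change of -1.30 ± 0.11 (edgeR FDR 4.81e-07), and was lower there than in the OE APOLO-labelled libraries as well (-1.01 ± 0.11). The phosphatase gene TPPA rose in both lines, with log2 fold changes of 0.47 ± 0.09 in the OE APOLO-labelled libraries (FDR 0.00261) and 0.65 ± 0.09 in OE UPAT (FDR 7.31e-05), and TPPE rose in OE UPAT by 0.51 ± 0.14 (FDR 0.00956). The TPPA call in the OE APOLO-labelled libraries was lost without WT A, WT C, OE APOLO B or OE APOLO C (FDR up to 0.0153), which left 0 genes of the list. The TPPE call was lost without any one of the WT and OE UPAT libraries or OE APOLO B (FDR up to 0.0467), without which 2 genes of the list were called in OE UPAT, and also with DESeq2 (FDR 0.0275) or with counts thinned to the smallest library (FDR 0.0430).

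The substrate UDP-glucose is made by UGP1 and UGP2 and also serves sucrose synthesis. Of the 14 genes for sucrose and UDP-glucose, 1 was higher and 1 lower in the OE APOLO-labelled libraries, and 2 were higher and 3 lower in OE UPAT. UGP2 rose in both lines, by 0.34 ± 0.07 in the OE APOLO-labelled libraries (edgeR FDR 0.00601) and by 0.41 ± 0.07 in OE UPAT (FDR 0.000536), and UGP1 rose in OE UPAT by 0.42 ± 0.07 (FDR 0.000197). SUS3, a sucrose synthase, fell in OE UPAT (log2 fold change -0.71 ± 0.10), and the other genes lower there were SPSA2 (-0.83 ± 0.19) and the sucrose synthase SUS6 (-0.62 ± 0.16). SPSC, a sucrose-phosphate synthase, fell in the OE APOLO-labelled libraries (-0.67 ± 0.08) and was higher in OE UPAT than there (0.59 ± 0.08). The count in OE UPAT was 3 without WT B, WT C or OE UPAT C, and that in the OE APOLO-labelled libraries was 1 without WT A, WT B, WT C, OE APOLO B, OE APOLO C or OE UPAT C, since the UGP2 call there was then lost (FDR up to 0.0314), as it was in the fit of only these 2 groups (FDR 0.0114).

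SnRK1, the kinase that Tre6P inhibits, was tested with 9 genes of its subunits and activating kinases. None was called in the OE APOLO-labelled libraries, where DESeq2 also called 0 and 4 had an unadjusted p under 0.05. In OE UPAT 2 of the 9 were lower, where 19.8% of all genes were called and 9.72% were lower. KINB1, a beta subunit, fell by a log2 fold change of -0.95 ± 0.09 (edgeR FDR 1.58e-06), and KING1, a gamma-type subunit, by one of -0.42 ± 0.08 (FDR 0.000713). The catalytic subunits KIN10 and KIN11 had log2 fold changes of -0.04 and 0.01 in OE UPAT and were not called. Of the 9 C and S1 bZIP factors, which act downstream of SnRK1, 1 was lower in the OE APOLO-labelled libraries, and 1 was higher and 3 lower in OE UPAT. BZIP9 fell in both lines (-0.63 ± 0.11 in the OE APOLO-labelled libraries and -0.84 ± 0.12 in OE UPAT), BZIP1 (-0.76 ± 0.10) and BZIP25 (-0.37 ± 0.07) fell in OE UPAT, and BZIP11 rose in OE UPAT (0.71 ± 0.16). Without WT A, the BZIP9 call in the OE APOLO-labelled libraries was lost (FDR 0.0114), and without WT A, WT C, OE UPAT B or OE UPAT C that of BZIP11 in OE UPAT (FDR up to 0.0203).

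The dark-inducible (DIN) genes, markers of carbon starvation in Arabidopsis, showed the lowest list medians, -0.30 in the OE APOLO-labelled libraries and -0.87 in OE UPAT. Of 8 genes, 7 were tested and DIN11 (3 to 7 counts) was too low. In the OE APOLO-labelled libraries 2 were lower, and in OE UPAT 5 were lower, with none higher in either. DIN6, an asparagine synthetase, had 1623, 1713 and 1766 CPM in the OE APOLO-labelled libraries, 576, 647 and 571 CPM in OE UPAT and 2157, 1916 and 2124 CPM in WT. The groups did not overlap, and DIN6 fell in OE UPAT by a log2 fold change of -1.79 ± 0.08 (edgeR FDR 2.85e-09), further than TPS11. DIN1 (-1.61 ± 0.12), DIN3 (-0.90 ± 0.08) and DIN4 (-0.87 ± 0.08) fell there too, the last pair being subunits of the branched-chain keto acid dehydrogenase. The fifth was DIN10 (-0.40 ± 0.08). The genes that fell in the OE APOLO-labelled libraries were DIN2 (-1.02 ± 0.16), which was higher in OE UPAT than there (0.71 ± 0.17, FDR 0.00609), and DIN3 (-0.35 ± 0.07). The DIN3 call was lost without WT A, WT C or any one of OE APOLO A, B and C (FDR up to 0.0453), which left 1 gene of the list.

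Transcripts of several class II members are known to cycle over the day, so 10 clock genes were read in the same way. In the OE APOLO-labelled libraries 2 were lower, PRR7 (log2 fold change -0.32 ± 0.07) and TOC1 (-0.31 ± 0.07). The count was 1 without WT B, OE APOLO A or OE UPAT B and 0 without WT A, WT C, OE APOLO B or OE APOLO C and in the fit of only these 2 groups. In OE UPAT 1 was higher, ELF4 (0.48 ± 0.08), and 3 were lower, PRR9 (-1.03 ± 0.24), CCA1 (-0.99 ± 0.18) and PRR7 (-0.55 ± 0.07). The part of the clock in the changes of the members was not tested.

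**Figure D4:**
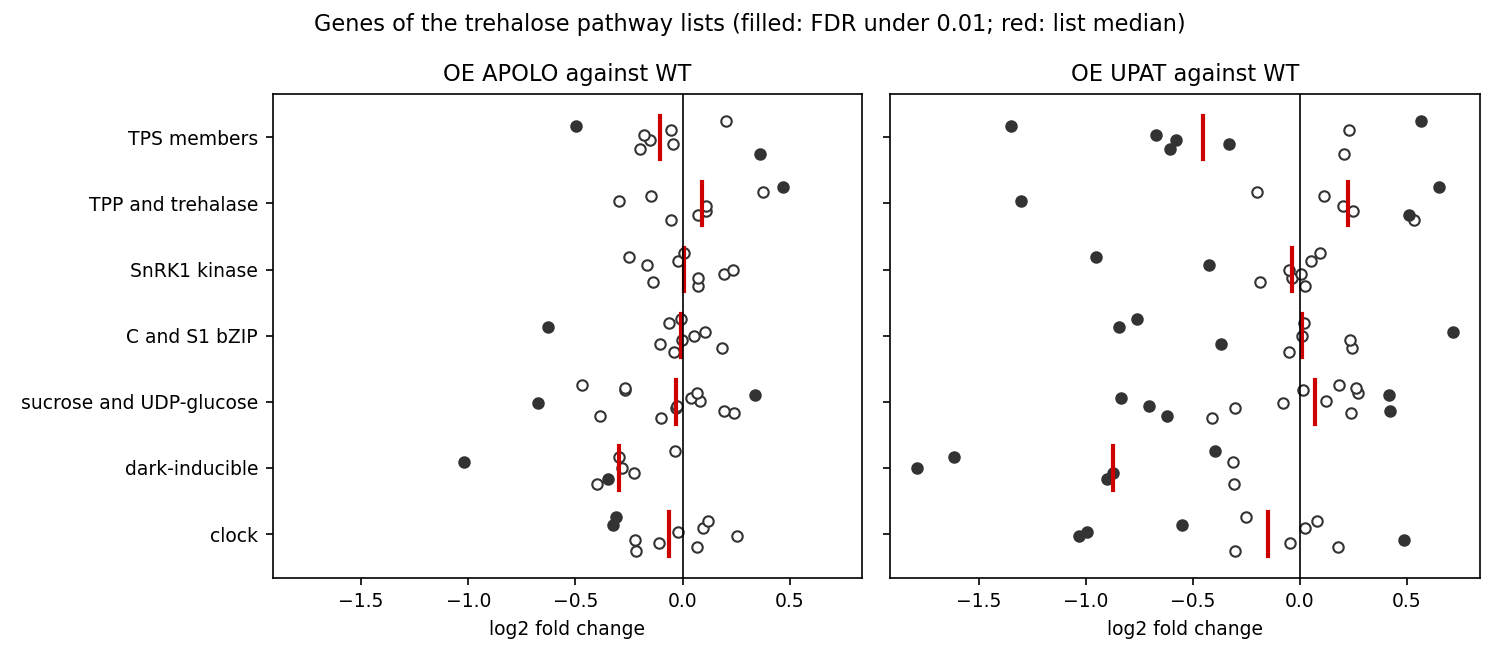
Log2 fold change of every tested gene of the member list and the 6 pathway lists in OE APOLO against WT (left) and OE UPAT against WT (right), with filled points at an edgeR FDR under 0.01 and red bars at list medians. The medians of the members (-0.45) and of the dark-inducible genes (-0.87) lie furthest below 0 in OE UPAT.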

How the data were processed

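RNA-Seq was done on whole 4-day-old seedlings of OE APOLO-1, OE UPAT-1 and WT, with 3 libraries each. The study's methods give independent replicates per genotype in a passage that may cover only its other RNA-Seq set, so that p-values measure the spread between these libraries, which may be technical. Per the study's methods and the submitters' processing notes, the authors made libraries with a stranded mRNA kit, sequenced single-end reads of 75 bases, trimmed them with Trimmomatic 0.36, removed ribosomal RNA with SortMeRNA, aligned the rest to TAIR10 with STAR 2.5.2b and counted reads over exons of the Araport11 annotation with featureCounts (Subread 1.6.5). The deposited values are what the authors' counting gave, estimated counts per feature with some fractions, not scaled for depth. How shared reads were divided and whether strand was used are not given in the sources used here. TPS7, TPS9 and TPS10 had a fractional count in 1, 3 and 1 libraries.

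The deposited counts were rounded to whole numbers for the tests, where whole counts had been assumed. Rows of 31189 transposable elements were left out. The 38194 genes were tested with edgeR 4.0.16 in R 4.3.3 (TMM, filterByExpr, quasi-likelihood F test), with all 9 libraries in 1 fit and no covariate, and p-values were adjusted by Benjamini-Hochberg over the 20021 genes that passed the filter, as did all 8 members. A call is an FDR under 0.01, the threshold of the study, with no minimum fold change. The test was also run on data simulated from the means and dispersions of the same fit, which cannot show whether its model suits these libraries. The SE of a log2 fold change is its size over the square root of F. CPM is the unrounded count over the TMM-scaled library size. Coordinates, lengths, promoters (250 bases) and coding sequences come from RefSeq TAIR10.1, and coding identity from MAFFT 7.526 alignments. The promoter of TPS6 is not reported here. No replicates of a group agreed within sampling noise (chi-square per gene 1.74 to 6.98).

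All 8 members are named. Of each pathway list the text names up to 4 genes called against WT in either line, by smallest p-value. It further names KIN10, KIN11, SPSA2, SUS6, DIN2, DIN10, PRR9 and the green tissue and root markers, chosen after their values were seen. For the member with the smallest p-value against WT, TPS11 in both comparisons, the 5 most alike genes by Pearson correlation are named. The members and lists were chosen with earlier results of these data known. Alternatives were DESeq2 1.42.0, RLE and upper-quartile normalization, no filter, at least 10 counts in every library, a replicate block, only the 2 groups compared, leaving out each library, thinning to the smallest library, no organelle genes, other thresholds and coding length.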

Additional observations from a re-analysis of the deposited data

Results flagged for a closer look

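For 5 members the effect of OE UPAT differed from that of the OE APOLO-labelled libraries by the direct test between both lines in edgeR. The log2 fold change between the lines was -0.42 for TPS6, -0.49 for TPS8, -0.41 for TPS9, -0.29 for TPS10 and -0.85 for TPS11, each lower in OE UPAT in 3 of 3 libraries than in any OE APOLO-labelled library. The groups of 3 libraries were too small to look for single outlying samples.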

How the results depend on the processing

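No member changed its direction past the threshold under any alternative. The number of members called stayed within 1.5 times the main count under DESeq2, RLE and upper-quartile normalization, both other filters, the fit of only the 2 groups compared, no organelle genes, thinning and an FDR under 0.05. With a log2 fold change of 1 or more in either direction also required, 0 members were called in the OE APOLO-labelled libraries against WT, 1 in OE UPAT against WT and 0 between the lines, because most changes of the members were smaller. Leaving out single libraries gave 1 to 2 members in the OE APOLO-labelled libraries against WT, 5 to 6 in OE UPAT against WT and 4 to 5 between the lines. The TPS10 difference between the lines was also lost with upper-quartile normalization (log2 fold change -0.24, FDR 0.0115) and in the fit of only these 2 groups (FDR 0.0118). At an FDR under 0.05, TPS7 in OE UPAT against WT and TPS1 and TPS5 between the lines passed as well. Over all genes, 1309 were called in the OE APOLO-labelled libraries against WT, 3971 in OE UPAT against WT and 3573 between the lines. These were 2658, 6306 and 5922 at an FDR under 0.05 and 252, 729 and 752 with the fold limit. Leaving out single libraries gave 639 (without WT A) to 1706 in the first comparison, with 731 without WT C and 865 without OE APOLO B, and in the third as few as 2209 (without OE UPAT C). With coding length, 5 of 8 members kept their place in the order of levels in the OE APOLO-labelled libraries, 3 in OE UPAT and 4 in WT. The exonic length, merged over all annotated transcripts, exceeds the coding length by a different amount in each member. Whether the replicate letters pair the libraries was not settled. Between the lines, same-letter deviations from the group mean correlated by 0.18 (A), 0.14 (B) and 0.003 (C), against -0.21 to 0.08 for different letters. Deviations within a group are tied to each other, so these values cannot exclude a pairing. Over all pairs of groups, deviations of same-letter libraries correlated by -0.25 to 0.18. Those of libraries with different letters correlated by -0.25 to 0.32, highest for WT B with OE APOLO A. A block by letter does not take up such variation shared across letters. With the replicate letter as a block, 2, 6 and 5 members were called in the 3 comparisons, as without it, while among the named genes DIN3 (FDR 0.0105) and TOC1 (FDR 0.0120) in the OE APOLO-labelled libraries, TPPE in OE UPAT (FDR 0.0153) and BZIP11 between the lines (FDR 0.0163) lost their call. The fewest counts of any member, 118 for TPS5 in OE UPAT C, limit its precision most.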
